A study of Homo sapiens with 6 samples.

Results

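The genes described here are 10 members of the BCL2 family, which controls apoptosis at the mitochondrion: BCL2, BCL2L1, MCL1, BAX, BAK1, BCL2L11, BID, BIK, BBC3 and PMAIP1. They were chosen by name, with earlier results of these data known. Every probe that carries one of these symbols on the Illumina Human-6 array was taken, which gave 22 probes of 48803. Of these, 12 probes of 8 genes were bright enough to be tested, among 17384 tested probes of 11002 genes. BIK and BBC3 had no probe that could be tested.

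Proteins of this family are related by short conserved stretches called BH domains. The anti-apoptotic members (BCL2, BCL-XL from BCL2L1, and MCL1) bind and hold the others, the effectors BAX and BAK1 form pores in the outer mitochondrial membrane through which cytochrome c leaves, and the BH3-only members (BIM from BCL2L11, BID, BIK, PUMA from BBC3 and NOXA from PMAIP1) either occupy the anti-apoptotic members or activate the effectors. Human embryonic stem cells are known to undergo apoptosis readily after DNA damage or dissociation, and BCL2 is known for its presence in the developing nervous system.

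Messenger RNA was measured in neural stem cell cultures (NSC) and in the pluripotent embryonic stem cell cultures (ESC) of the same 3 established human lines, H1, HSF1 and HSF6, with 1 culture and 1 array for each line and stage. NSC were obtained from ESC by neural induction, in the Rutgers protocol with B27 and N2 supplements followed by a precursor medium with bFGF on Matrigel. ESC of H1 were grown at Rutgers without feeder cells, whereas both HSF lines were cultured and differentiated at UCLA, and an effect of H1 and an effect of the site cannot be told apart. H1 is described in the methods as carrying duplications, on chromosomes that hold none of the 10 genes. Each stage thus has 3 arrays of 3 different lines, and a p-value measures the spread between these cultures only. In bulk RNA, fewer cells of a type and less RNA per cell cannot be told apart.

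Signals are the deposited intensities on a linear scale, which include background and run from 82.3 to 52384 over all probes. The background peak lay at 127 with an SD of 11.2, and 145.3 was set as the limit of background. A probe was tested where all 3 arrays of at least 1 stage exceeded it, so a probe may have entered through 1 stage alone. Log2 fold changes (NSC minus ESC) were taken after the background had been removed, which enlarges the change of dim probes, and an offset of 16 had been added, which reduces it. The fold of a dim probe therefore depends on both steps. A probe was called higher or lower in NSC when its limma adjusted p was under 0.05 and its change was 1.5-fold or more. Levels of different probes are not compared, since probes differ in how well they bind.

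The stage labels were checked against marker genes. All 7 tested pluripotent markers of 8 listed were lower in NSC, where their summed background-removed signal was 205 to 512, against 34952 to 49398 in ESC. Of 5 tested neural stem cell markers, 4 were higher in NSC (summed signal 35059 to 44887, against 5289 to 15860 in ESC), although PAX6 and SOX1, and NANOG among the pluripotent markers, had no tested probe. VIM made up most of that sum, with deposited signals of 31083 (H1), 32661 (HSF1) and 37071 (HSF6) in NSC. The sum therefore mostly follows that gene and is not a measure of neural identity. The marker not called was NES, at 886 in NSC against 1213 in ESC of H1, and higher in NSC of both HSF lines. In H1, FABP7 had 243 in NSC against 183 in ESC and SLC1A3 577 against 337, while SOX9 had 2907 against 288. NSC also held more signal of 4 of 5 neuron markers (3315 to 18270, against 2089 to 2502 in ESC) and of all 7 mesenchyme and fibroblast markers (35850 to 153390, highest in H1, against 1477 to 4961 in ESC). Of 6 proliferation markers 2, BUB1 and AURKA, were lower in NSC. The part of these other cell types in the results below was not tested.

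Promoter sequences are shown for BCL2, PMAIP1 and BAK1, the members with a window available whose probes changed. Whether the letters of a window bear on the change of its gene was not tested. The windows run from 250 bases before to 50 bases after the annotated gene start, in the RefSeq table of GRCh38.p14. They are BCL2 at chr18:63319720-63320019 (minus strand), PMAIP1 at chr18:59899746-59900045 (plus strand) and BAK1 at chr6:33580227-33580526 (minus strand), each read 5′ to 3′ on the gene's own strand. Capitals mark matches on either strand to any of 6 motifs, which are the GC box with the letters GGGCGG, the CCAAT box with the letters of its name, the TATA box as spelled TATAAA, the E-box as spelled CACGTG, the cAMP response element as TGACGTCA, and the octamer as ATGCAAAT.
BCL2: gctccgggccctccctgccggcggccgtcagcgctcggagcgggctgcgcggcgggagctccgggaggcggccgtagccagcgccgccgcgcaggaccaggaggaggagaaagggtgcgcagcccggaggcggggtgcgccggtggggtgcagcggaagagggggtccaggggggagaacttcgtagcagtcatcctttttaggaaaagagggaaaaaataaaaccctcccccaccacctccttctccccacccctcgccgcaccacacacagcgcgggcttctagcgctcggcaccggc
PMAIP1: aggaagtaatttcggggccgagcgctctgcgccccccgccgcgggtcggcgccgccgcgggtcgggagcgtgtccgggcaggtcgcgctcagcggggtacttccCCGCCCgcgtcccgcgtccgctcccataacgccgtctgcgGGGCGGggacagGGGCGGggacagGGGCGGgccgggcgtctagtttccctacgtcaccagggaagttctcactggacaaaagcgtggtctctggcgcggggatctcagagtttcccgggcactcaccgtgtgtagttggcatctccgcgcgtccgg
BAK1: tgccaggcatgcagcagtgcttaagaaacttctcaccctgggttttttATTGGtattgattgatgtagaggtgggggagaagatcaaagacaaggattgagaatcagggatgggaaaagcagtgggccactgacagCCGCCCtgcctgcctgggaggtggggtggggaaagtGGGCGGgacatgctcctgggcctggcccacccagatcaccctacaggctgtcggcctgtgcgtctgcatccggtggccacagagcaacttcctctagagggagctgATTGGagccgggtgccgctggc

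The BCL2 window held no match to any of the 6 motifs, as was so for 26.4% of the 35116 windows of that length. In the PMAIP1 window 4 GC boxes lay between bases -146 and -77 from the start, a number reached by 9.06% of all windows. The BAK1 window held 2 GC boxes and 2 CCAAT boxes, and no match overlapped another. A GC box was found in 45% of all windows and a CCAAT box in 34.6%. Among the other members, the BAX window at chr19:48954625-48954924 held 4 E-boxes, 2 GC boxes and 2 CCAAT boxes, and 4 or more E-boxes occurred in 5 of the 35116 windows (0.0142%), with at least 1 in 7.26%. BBC3 had 1 CCAAT box and 1 E-box, BCL2L11 had 3 GC boxes and 1 CCAAT box, and the 5 windows of BID held 0 to 4 GC boxes. Of the 2 windows of BCL2L1, 1 held a GC box and the other a pair of TATA boxes, a motif found in 11.5% of all windows. The cAMP response element and the octamer were matched in 1.85% and 1.77% of all windows and in none of the 13 windows of 8 members. MCL1 and BIK were not in the table. Such matches describe letters only, and binding was not measured.

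Among the 12 tested member probes, 2 were higher in NSC, both of BCL2, and 4 were lower, of PMAIP1 (2), MCL1 and BAK1. Over all 17384 tested probes, 10.3% were higher and 11.9% were lower in NSC. By gene, 1 member was higher and 3 were lower of 8 tested, against 11.4% and 12.4% of all 11002 genes. Signals of the 3 NSC arrays all lay above those of the 3 ESC arrays for the same 2 BCL2 probes and all below for 7 probes, and they overlapped for 3, whereas 19.4% of all tested probes lay wholly above and 25.1% wholly below. In 11 of the 12 probes the change had the same sign in the 3 lines, a count for which no share over all tested probes was computed.

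**Figure D1:**
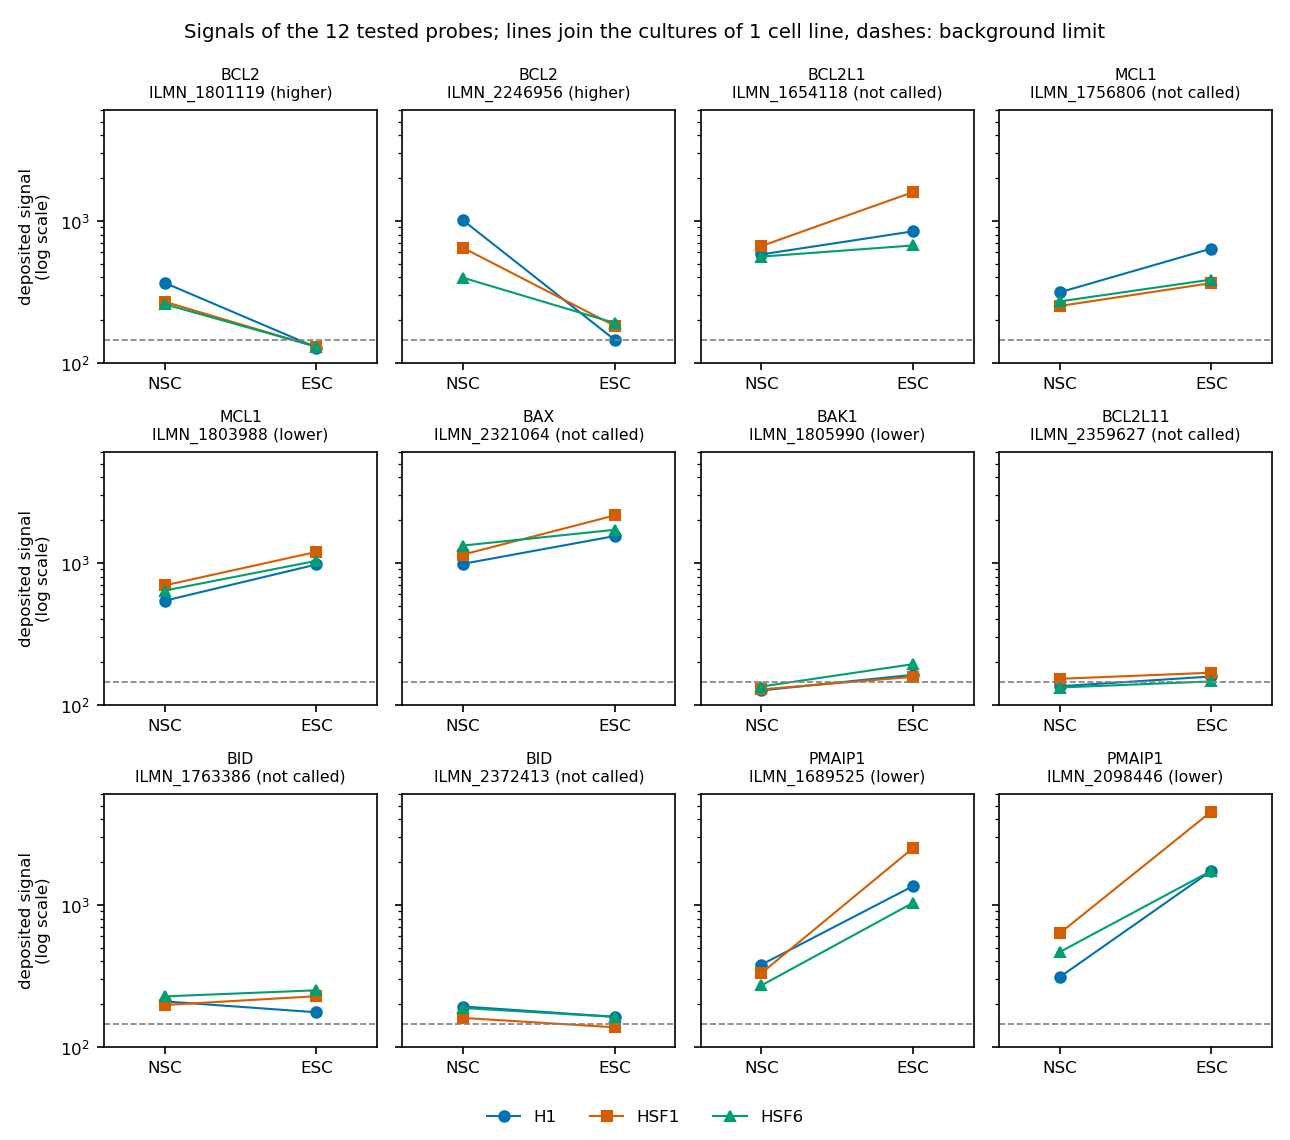
Deposited signal (log scale) of the 12 tested probes in NSC (left of each panel) and ESC (right), with 1 point per array, lines joining the cultures of a cell line and a dashed line at the background limit of 145.3. Both BCL2 probes fall towards ESC in every line, both PMAIP1 probes climb, and the 2 BID probes stay within 137 to 250.1.

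BCL2, the founding anti-apoptotic member, was the only one of the 8 tested members called higher in NSC. Its probe ILMN_2246956, designed on the transcript NM_000633, had signals of 1008 (H1), 645 (HSF1) and 397 (HSF6) in NSC, against 145.2 (H1), 182 (HSF1) and 191 (HSF6) in ESC. The groups did not overlap, and the order of the lines in NSC was the reverse of that in ESC, where H1 lay just under the background limit. The probe was therefore tested through the NSC arrays alone. In log2 units after background removal, NSC averaged 9.01 ± 0.83 and ESC 5.86 ± 0.64 (SD, n = 3 each).

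This difference was 3.15 (SE 0.49, 95% interval 1.997 to 4.30) on the log2 scale, or 8.86-fold, with an adjusted p of 0.00729 in limma. H1 changed by 4.67, HSF1 by 2.92 and HSF6 by 1.85, so NSC were higher in 3 of 3 lines. Ranked by its signed change, BCL2 was number 202 of 11002 genes from the most increased, and 2.95% of genes had a change of larger size in either direction. Without background removal the log2 difference of this probe was 1.89, and without both HSF1 arrays its adjusted p was 0.0774.

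The other tested probe on the same transcript, ILMN_1801119, had signals of 366 (H1), 269 (HSF1) and 259 (HSF6) in NSC. In ESC it had 128 (H1), 129 (HSF1) and 129.9 (HSF6), none above the background limit. NSC were again highest in H1 and did not overlap with ESC, which were within 2 units of each other.

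Since ESC have only a bound here, the NSC level was at least 5.13-fold higher on the background-removed scale, with a fitted log2 difference of 2.82 (SE 0.28, 95% interval 2.16 to 3.48) and a limma adjusted p of 0.00184. The changes were 3.33 (H1), 2.62 (HSF1) and 2.51 (HSF6). Without background removal the log2 difference was 1.19, and with an offset of 50 it was 1.86, both below that bound. The probe was tested through the NSC arrays alone. Its ESC values, all at background, had a log2 SD of 0.02, so the SE, interval and adjusted p treat an unmeasured level as measured. The probe remained higher in NSC under each of the 16 alternative settings that could test it. These leave out the setting that kept only probes above the limit on all 6 arrays.

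BCL2 has a shorter transcript, NM_000657, with 2 probes of its own, neither tested. Probe ILMN_1701120 lay at 106, 113 and 118 in NSC of H1, HSF1 and HSF6, and at 105, 109 and 106 in ESC, all below the limit. Probe ILMN_2363250 had 126, 152 and 130.4 in NSC and 136, 129 and 138 in ESC of the same lines. Only the NSC of HSF1 exceeded the limit, and a change in the shorter transcript could not be measured.

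H1 carried the largest BCL2 change, and the mesenchyme marker sum in NSC was also highest there (153390, against 35850 in HSF1 and 66221 in HSF6), while the neuron marker sum was lowest in it (3315, against 15379 in HSF1 and 18270 in HSF6). Whether these cell types took part in the BCL2 signal was not tested. When limma compared the stage effect in H1 with that in the HSF lines, the change of ILMN_2246956 was 2.29 larger in H1 (SE 0.62, adjusted p = 0.185), where H1 is assumed to vary as the HSF lines do. None of the 12 member probes had an adjusted interaction p under 0.05, against 0.259% of all tested probes. ILMN_2246956 was the only member probe of the 12 at an unadjusted p under 0.05, as were 2753 of all 17384.

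The 3 genes whose pattern over the 6 arrays lay nearest to that of ILMN_2246956 were PDGFD, SEMA5A and CPE, by the Euclidean distance between log2 values centred on each probe's mean. The distances were 0.866, 0.959 and 1.001. PDGFD, a growth factor of the PDGF family, was higher in NSC by 2.56 on the log2 scale, SEMA5A, a semaphorin of axon guidance, by 2.78, and CPE, the carboxypeptidase that processes peptide hormones, by 3.23. All 3 changed most in H1, as ILMN_2246956 did. Their direction and this order follow from being picked by its pattern.

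**Figure D2:**
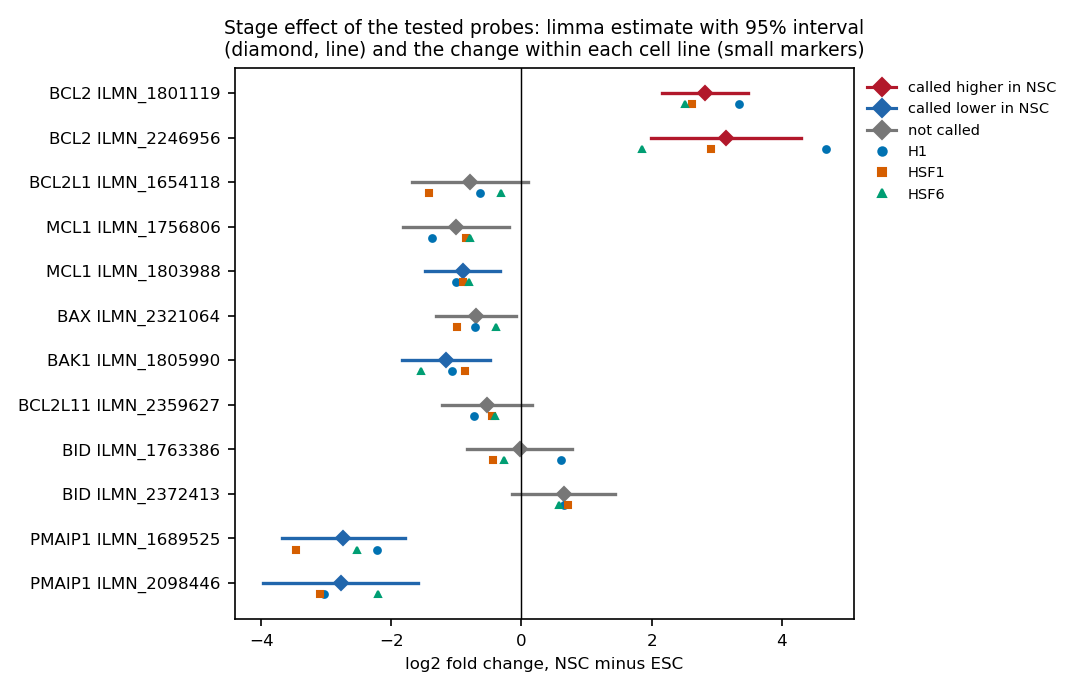
Log2 fold change of the 12 tested probes, NSC minus ESC (horizontal axis), as the limma estimate with its 95% interval (diamond and line, coloured by call) and as the change within H1, HSF1 and HSF6 (small markers). The BCL2 estimates of 2.82 and 3.15 and the PMAIP1 estimates of -2.74 and -2.78 stand apart from the other 8, which lie between -1.16 and 0.65.

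BCL-XL, the long product of BCL2L1 (chromosome 20), blocks apoptosis in the same way. Probe ILMN_1654118 had signals of 579.8 (H1), 664 (HSF1) and 559 (HSF6) in NSC, against 843 (H1), 1592 (HSF1) and 671 (HSF6) in ESC. All NSC lay below all ESC, and the ESC of HSF1 stood well above the other ESC. The log2 difference was -0.80 (SE 0.38, 95% interval -1.69 to 0.10) and did not pass, with a limma adjusted p of 0.171. Within lines it was -0.64 (H1), -1.42 (HSF1) and -0.32 (HSF6). The other probe, ILMN_1742410, lay near the limit on every array, at 139 to 145.2 in NSC and 144 to 159 in ESC, and was not tested.

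As HSF1 stood out in ESC, the coding genes beside BCL2L1 were examined, 10 on each side. Of 20 neighbours, 18 had a probe and 7 were tested, and none of the 7 was called by limma, the smallest adjusted p being 0.0975 (CCM2L). For the counts that follow, no share over all genes was computed. All 7 neighbours were higher in ESC of HSF1 than in ESC of H1 and HSF6, and 3 of the 7 were highest in HSF1 among NSC. Their median log2 deviation from the stage mean in NSC was 0.11 (H1), 0.15 (HSF1) and -0.36 (HSF6), beside -0.06 (H1), 0.18 (HSF1) and -0.12 (HSF6) for BCL2L1. In ESC the median was -0.60 (H1), 0.67 (HSF1) and 0.03 (HSF6), beside -0.21 (H1), 0.81 (HSF1) and -0.60 (HSF6) for BCL2L1. Over all genes these medians lay between -0.02 and 0.03, but arrays that share a common distribution keep such medians near 0. They do not show how far a median of 7 genes can stray. The deviations are a description of single cultures and were not tested.

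MCL1, on chromosome 1, encodes a short-lived anti-apoptotic protein that NOXA binds. Its probe ILMN_1803988 had signals of 541 (H1), 693 (HSF1) and 637 (HSF6) in NSC, against 973 (H1), 1194 (HSF1) and 1032 (HSF6) in ESC. No NSC signal reached the lowest ESC signal, and the lines kept the same order in both stages. The gene was lower in NSC by this probe, with a log2 difference of -0.90 (SE 0.25, 95% interval -1.48 to -0.33) and a limma adjusted p of 0.0392. The changes within lines were close to each other, at -1.01 (H1), -0.90 (HSF1) and -0.81 (HSF6). The call was lost when any 1 of the 6 arrays was left out, with adjusted p between 0.0603 and 0.113.

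Probe ILMN_1756806 of MCL1 had 314 (H1), 251 (HSF1) and 271 (HSF6) in NSC, against 638 (H1), 364 (HSF1) and 386 (HSF6) in ESC. Here too all NSC lay below all ESC, and H1 was the highest line in both stages. The log2 difference of -1.01 (SE 0.35, 95% interval -1.82 to -0.20) did not pass, with a limma adjusted p of 0.0755. With the cell line as a block the adjusted p was 0.0455, and the probe was then called lower in NSC.

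BAX and BAK1 encode the pore-forming effectors. BAX, on chromosome 19, had signals of 984 (H1), 1142 (HSF1) and 1323 (HSF6) in NSC by probe ILMN_2321064, against 1542 (H1), 2157 (HSF1) and 1707 (HSF6) in ESC. The groups did not overlap, but the difference did not pass: -0.70 on the log2 scale (SE 0.26, 95% interval -1.32 to -0.08, limma adjusted p 0.0967). All 3 lines went the same way, by -0.71 (H1), -0.99 (HSF1) and -0.40 (HSF6). Probe ILMN_1683300 of BAX exceeded the limit only in ESC of H1 and HSF6, at 184 and 155, while NSC lay between 125 and 144. The third probe of BAX, ILMN_2258383, was below the limit on all 6 arrays, at 119.98 to 124 in NSC and 115 to 123 in ESC. It is annotated to the same transcript as ILMN_2321064, NM_138764, and the reason for their unlike signals was not tested.

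BAK1, on chromosome 6, has a single probe, ILMN_1805990, whose signal was 126 (H1), 128 (HSF1) and 134 (HSF6) in NSC, all below the limit. In ESC it was 163 (H1), 158 (HSF1) and 193 (HSF6), all above it. The probe was therefore tested through the ESC arrays alone. BAK1 was lower in NSC, and ESC were at least 1.64-fold higher on the background-removed scale. The fitted log2 difference was -1.16 (SE 0.29, 95% interval -1.84 to -0.49) with a limma adjusted p of 0.0291, and the lines changed by -1.07 (H1), -0.87 (HSF1) and -1.55 (HSF6). Without background removal the log2 difference was -0.39 (adjusted p 0.0767) and with an offset of 50 it was -0.63 (adjusted p 0.0684), both smaller than the bound, and the adjusted p exceeded 0.05 in 4 of the 6 fits that left out 1 array (0.0528 to 0.0824).

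PMAIP1 encodes NOXA, a BH3-only protein induced by cell stress, and it showed the largest decrease among the members tested. Probe ILMN_2098446 had signals of 309 (H1), 629.5 (HSF1) and 465 (HSF6) in NSC, against 1736 (H1), 4537 (HSF1) and 1736 (HSF6) in ESC. Every NSC was far below every ESC, and HSF1 was the highest line in both stages. The equal values of H1 and HSF6 are of the kind that a common distribution of the arrays gives to equal ranks.

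The log2 level of this probe averaged 8.37 ± 0.70 in NSC and 11.15 ± 0.83 in ESC (SD, n = 3 each). The difference was -2.78 (SE 0.51, 95% interval -3.97 to -1.59), that is 6.85-fold higher in ESC, with a limma adjusted p of 0.0118. Within lines it was -3.04 (H1), -3.09 (HSF1) and -2.20 (HSF6). PMAIP1 was number 172 of 11002 genes from the most decreased.

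The other PMAIP1 probe, ILMN_1689525, had 379 (H1), 329.7 (HSF1) and 271 (HSF6) in NSC, against 1355 (H1), 2510.0 (HSF1) and 1033 (HSF6) in ESC. The groups were again apart in all lines. The log2 difference was -2.74 (SE 0.40, 95% interval -3.68 to -1.80), or 6.66-fold higher in ESC, with a limma adjusted p of 0.00591. The changes were -2.22 (H1), -3.46 (HSF1) and -2.53 (HSF6), so that both probes changed most in HSF1. Without both HSF6 arrays the adjusted p of ILMN_2098446 was 0.0741, and without both HSF1 arrays that of ILMN_1689525 was 0.0592.

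Nearest to ILMN_2098446 over the 6 arrays were GUCA1A (distance 0.563), CKMT1A (0.604) and CDS1 (0.703). Their decrease follows from being picked by its pattern. GUCA1A, an activator of guanylate cyclase in photoreceptors, had a log2 difference of -2.76, CKMT1A, a mitochondrial creatine kinase whose near-identical copy CKMT1B the probe may not tell apart, one of -2.80, and CDS1, an enzyme of phosphatidylinositol synthesis, one of -2.95.

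The remaining BH3-only genes were dim and none was called. BCL2L11, on chromosome 2, encodes BIM, which binds all anti-apoptotic members. Its tested probe ILMN_2359627 had signals of 135 (H1), 152 (HSF1) and 132 (HSF6) in NSC, against 158 (H1), 168 (HSF1) and 146 (HSF6) in ESC. The groups overlapped although each line was lower in NSC, and the log2 difference of -0.53 (SE 0.30, 95% interval -1.22 to 0.16) did not pass (limma adjusted p 0.227). Probe ILMN_1774997 had 118, 155 and 140.1 in NSC of H1, HSF1 and HSF6, against 156, 140.2 and 164 in ESC, with HSF1 opposite to the other lines. Probe ILMN_1766541 reached the limit only in NSC of HSF1 (146), with 123 and 130.3 in NSC of H1 and HSF6 and 142 to 145.2 in ESC.

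BID, on chromosome 22, links death receptors to mitochondria once caspase 8 has cut it. Probe ILMN_1763386 had 209 (H1), 197 (HSF1) and 227 (HSF6) in NSC, against 175 (H1), 227 (HSF1) and 250.1 (HSF6) in ESC. H1 was higher and both HSF lines were lower in NSC, so the log2 difference was -0.03 (SE 0.34, 95% interval -0.83 to 0.77, limma adjusted p 0.958).

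Probe ILMN_2372413 of BID had 192 (H1), 159.7 (HSF1) and 188 (HSF6) in NSC, against 163 (H1), 137 (HSF1) and 162 (HSF6) in ESC. The groups overlapped only through NSC of HSF1, and the changes within lines were 0.65 (H1), 0.71 (HSF1) and 0.58 (HSF6). The difference of 0.65 (SE 0.34, 95% interval -0.14 to 1.44) did not pass in limma (adjusted p 0.202). The interval leaves room for no change and for an increase of more than 2-fold. The third BID probe, ILMN_2259495, was below the limit on all arrays (116 to 132 in NSC and 114 to 139 in ESC).

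BIK, also on chromosome 22, had 105 (H1), 122 (HSF1) and 118 (HSF6) in NSC by its only probe, ILMN_1770505. Its ESC signals were 154 (H1), 141 (HSF1) and 124 (HSF6), all above those in NSC, but only that of H1 exceeded the limit. BBC3, which encodes PUMA and lies on chromosome 19, had 111 (H1), 132 (HSF1) and 123 (HSF6) in NSC by probe ILMN_1729645, against 148 (H1), 127 (HSF1) and 119.9 (HSF6) in ESC. Again only ESC of H1 exceeded the limit, and the stages overlapped. At this signal over background no difference in BIK or BBC3 was detectable. Across the 10 untested probes of the family, 11 of 60 signals exceeded the limit and the highest was 184.

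**Figure D3:**
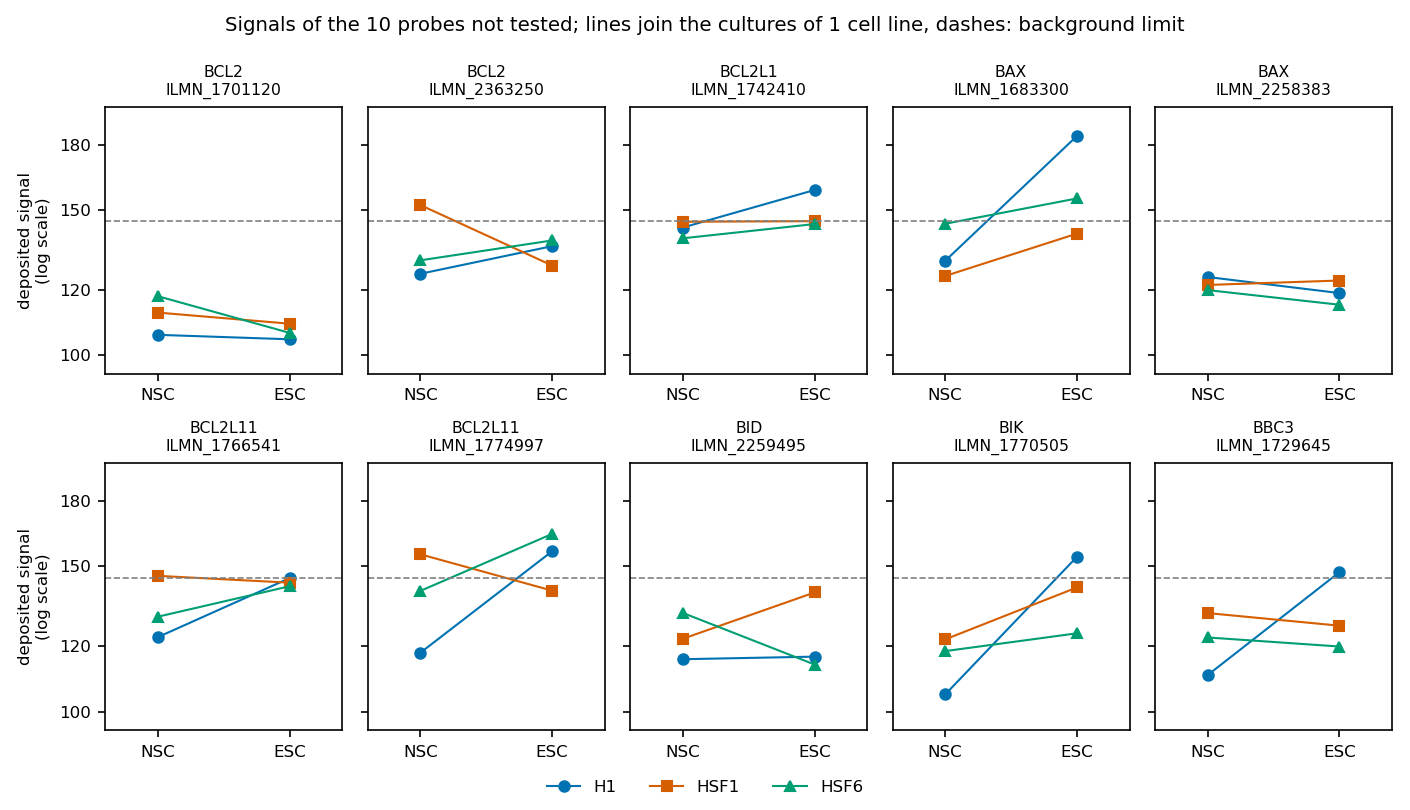
Deposited signal (log scale) of the 10 probes that were not tested, in NSC (left of each panel) and ESC (right), with lines joining the cultures of a cell line and a dashed line at the background limit of 145.3. All signals lie between 105 and 184, most of them below the limit.

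The distance between members was put into numbers as the change of 1 gene minus that of another within each line, by the brightest probe of each, a contrast picked once the values were known and therefore given without a test. BCL2 minus BCL2L1 differed between the stages by 5.32 (H1), 4.34 (HSF1) and 2.17 (HSF6) on the log2 scale, with a mean of 3.94. BCL2 minus MCL1 differed by 5.68 (H1), 3.81 (HSF1) and 2.66 (HSF6), with a mean of 4.05. For BCL2 minus BAX, the contrast of an inhibitor with an effector, the values were 5.39 (H1), 3.90 (HSF1) and 2.25 (HSF6), with a mean of 3.85. Each was higher in NSC of 3 of 3 lines and largest in H1. The 3 contrasts share the BCL2 probe ILMN_2246956, so they are not separate observations. That probe alone changed by 4.67 (H1), 2.92 (HSF1) and 1.85 (HSF6). Its ESC signal in H1 lay under the background limit, and without background removal its log2 difference was 1.89. MCL1 minus PMAIP1, an inhibitor and the BH3-only protein that binds it, was also higher in NSC, by 2.03 (H1), 2.20 (HSF1) and 1.39 (HSF6), with a mean of 1.87, as PMAIP1 was reduced more than MCL1.

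Other genes of the pathway were taken from 4 lists of 64 genes, of which 59 had a probe and 44 were tested. In NSC 5 were higher (11.4%) and 4 were lower (9.09%), against 11.4% and 12.4% of all genes, and their median log2 fold change was 0.09, against -0.06 over all genes. Their share of calls was thus near that of all genes, and without both arrays of HSF1, or of HSF6, no list gene was called.

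Among 8 tested genes of 13 further members and relatives of the BCL2 family, 2 were higher and 1 was lower in NSC (median 0.39). BNIP3L, a mitophagy receptor also called NIX, had signals of 3312 (H1), 3458 (HSF1) and 3813 (HSF6) in NSC, against 805 (H1), 977 (HSF1) and 1190.2 (HSF6) in ESC, a log2 difference of 1.98 (SE 0.26, limma adjusted p 0.00417). BAD, a BH3-only protein regulated by phosphorylation, was higher by 1.17 (SE 0.27, adjusted p 0.0234). BCL2L12 fell by 1.61 (SE 0.31, adjusted p 0.0137), with a further probe that was not called. BCL2L2, which encodes the anti-apoptotic BCL-W, had a difference of 0.67 (SE 0.24) that did not pass (adjusted p 0.0827).

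Of 14 tested genes of 20 for mitochondrial release and caspases, 1 was higher and 2 were lower (median 0.17). CASP2, an initiator caspase, was higher in NSC by 1.19 on the log2 scale (SE 0.35, limma adjusted p 0.0473), and no gene of the list was called higher with the cell line as a block, by the methods' t-test, without the filter on dim probes, or when any 1 array or any line was left out. DFFA, the inhibitor of the nuclease that cuts DNA in apoptosis, fell by 1.54 (SE 0.29, adjusted p 0.0131), and AIFM1, the apoptosis-inducing factor of mitochondria, fell by 0.98 (SE 0.24, adjusted p 0.0279). Each of the 3 had another probe that was not called. APAF1, the scaffold on which caspase 9 is activated, had a difference of 0.51 (SE 0.22, adjusted p 0.143).

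None of the 5 tested genes of 13 in the death receptor pathway was called by limma (median -0.21), none was called by the methods' t-test, and the unadjusted 95% interval excluded 0 for CFLAR alone. CFLAR, the FLIP inhibitor of caspase 8, came nearest, at 159.9 (H1), 123 (HSF1) and 209 (HSF6) in NSC, against 231 (H1), 275 (HSF1) and 319 (HSF6) in ESC, with a log2 difference of -1.73 (SE 0.52, adjusted p 0.0501). With the cell line as a block it was called lower in NSC.

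Of 17 tested genes of 18 that regulate BCL2 proteins or their genes, 2 were higher and 1 was lower (median -0.14). FOXO3, a transcription factor for BIM and PUMA, was higher in NSC by 1.33 (SE 0.29, limma adjusted p 0.0196), and FBXW7, of the ubiquitin ligase that marks MCL1 for breakdown, by 0.94 (SE 0.26, adjusted p 0.0382). PIM1, a kinase that phosphorylates BAD, fell by 1.94 (SE 0.33, adjusted p 0.00965). ATF4, MYC and MYCN were not called by their brightest probe, but each had another probe called lower. The 2 higher genes became 0 or 1 when any 1 array was left out, and 0 without any line and by the methods' t-test. With the cell line as a block 4 were higher and 3 were lower, with DDIT3 and STAT3 added as higher and FOXO4 and USP9X as lower.

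**Figure D4:**
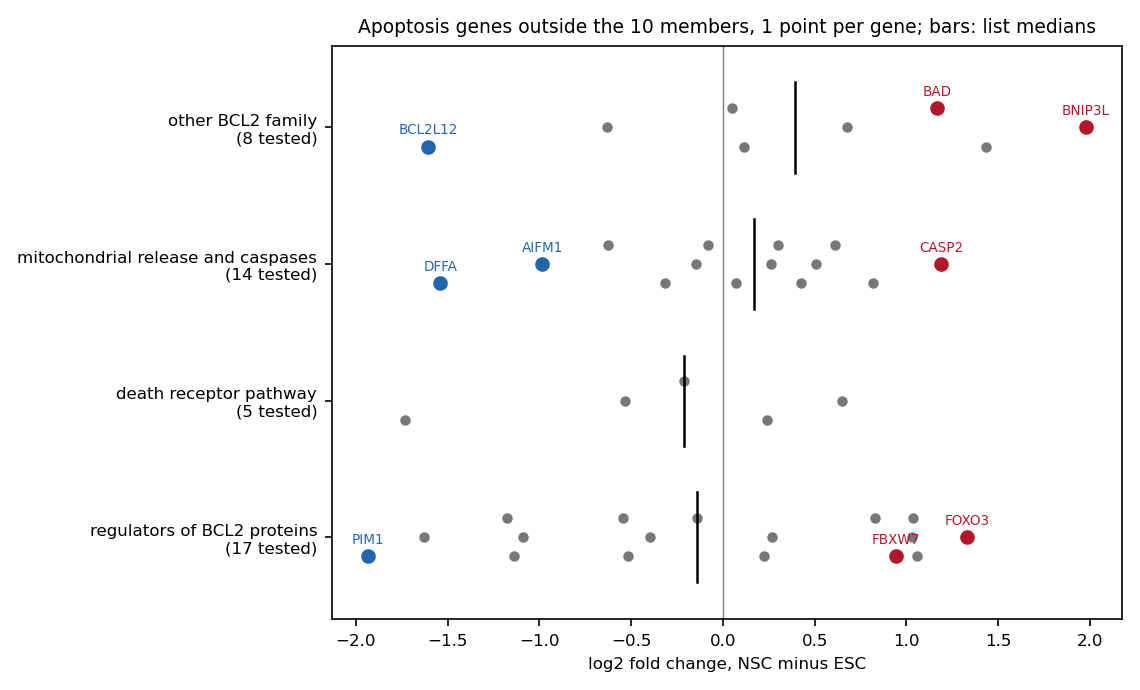
Log2 fold change, NSC minus ESC (horizontal axis), of the 44 tested genes in 4 lists of apoptosis genes outside the 10 members, with 1 point per gene, a bar at each list's median and names at the 9 called genes (red higher, blue lower). Called genes lie on both sides of 0 in 3 of the 4 lists, and the death receptor list has none.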

How the data were processed

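Messenger RNA of 3 NSC and 3 ESC cultures was measured on 6 Illumina Human-6 arrays, and groups were taken from the sample labels. The deposited values are intensity per probe, which the authors summarised in BeadStudio per the submitters' processing notes. The normalization is not given in the sources used here. The values are linear, share 1 distribution over the 6 arrays and hold no background subtraction. Another table, with 24 columns of unnormalized values, names no sample of these labels and was not used. Arrays have no count depth, and precision is limited by how few they are and by dim signals.

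The tools were R 4.3.3 and limma 3.58.1. Background was removed by the normexp formula with the mean and SD of the background peak (127 and 11.2), 16 was added and log2 was taken. Of 48803 probes, 27578 had 1 gene symbol, 13 had several and 21212 had none in the platform annotation. NSC were compared with ESC by lmFit and eBayes without covariates, with Benjamini-Hochberg adjustment over all 17384 tested probes. A bound ("at least") sets the dimmer stage at the background limit. Named are all probes of the members, up to 3 called genes per list and direction, each by its brightest tested probe, and the 3 genes nearest to the member probe with the largest called change each way. BCL2L2, APAF1, CFLAR, ATF4, MYC, MYCN, the genes added by the block and the pairs of members were named after their values were seen. The members and lists were chosen with earlier results of these data known. Scripts were tested on simulated data. One list of pathway genes and 1 promoter motif are not reported here.

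Both stages come from the same lines, which pairs the arrays. Across probes, which are not independent, a line's deviation from the stage mean in NSC correlated with that in ESC (r = 0.17 for H1, 0.22 for HSF1, 0.10 for HSF6).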

Additional observations from a re-analysis of the deposited data

How the results depend on the processing

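The member calls, 2 probes higher and 4 lower in NSC among 3861 called probes, were recomputed under 17 alternatives, in which the direction of 11 of the 12 tested probes held wherever they were tested. When only probes above background on all 6 arrays were kept, 0 members were higher, since no BCL2 probe was then tested, and 2517 probes were called in all. By the methods' t-test, run on the same background-removed and filtered values, 1 member probe was higher (BCL2 ILMN_1801119), 1 was lower (PMAIP1 ILMN_1689525), and 1505 probes were called in all, with 1 list gene higher and 1 lower in place of 5 and 4. Leaving out 1 array gave 2 member probes higher and 2 to 3 lower, 1563 to 4034 probes called in all, and 1 to 3 list genes higher and 2 to 5 lower, with the fewest probes called without NSC of HSF6. Leaving out both arrays of a line gave 1 to 2 member probes higher and 1 to 2 lower, 397 to 4174 probes called (627 without HSF6), and 0 to 2 list genes higher and 0 to 6 lower, with the fewest probes called without HSF1. BID ILMN_1763386, which was not called, changed sign in 5 of these fits, at -0.36 to 0.20 without 1 array, 0.089 without HSF6 and 0.17 without HSF1, against -0.03. With the cell line as replicate block, MCL1 ILMN_1756806 was called lower (adjusted p 0.0455), no other member call changed, and 6 list genes were higher and 7 lower. The call of BAK1 was also lost with an offset of 50 (adjusted p 0.0684). The causes of these differences between settings were not tested. Dim probes limit BAK1, BCL2L11, BID, BIK and BBC3 most. The fold of BCL2 is limited as well, by ESC signals at or near background.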
